A study of Danio rerio with 12 samples.

Results

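The genes described here build, cut or grip the extracellular matrix outside the collagens: laminins and nidogens, fibronectins and other matrix glycoproteins, elastic fibre proteins, small leucine-rich proteoglycans, matrix metalloproteinases and their inhibitors, ADAMTS proteases, and integrins. They were chosen by gene symbol, and a gene was kept where its mean level was at least 1 CPM (the usual unit for reads of a gene scaled by the total counted in the library) over the embryo libraries or over the heart libraries. Of 25680 genes, 149 matched by name and 126 were kept, 117 in hearts, 114 in embryos and 105 in both. The symbol rule also took in 5 genes that share only the start of a name with a matrix family, such as itgb1bp1, which encodes a protein that binds an integrin tail, and loxhd1b, which is no lysyl oxidase. The 23 genes below the minimum in both tissues included the elastin gene elnb, the platelet integrin gene itga2b and the lysyl oxidase gene loxa. Near the minimum, mmp30 (1.06 CPM), mmp17b (1.15) and elna (1.26) lay just inside in hearts and itgae.2 (0.968), mmp11a (0.850) and elnb (0.848) just outside. In embryos TIMP3 (1.06 CPM), adamts8a (1.07) and tnr (1.22) lay just inside, and fbln7 (0.964) and mmp17a (0.682) just outside.

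The RNA came from zebrafish that lack functional tet2 and tet3, which encode enzymes that oxidise methylated cytosine in DNA, and from their controls. Double mutants (DM) carried inactivating mutations in tet2 and in tet3, siblings were a mix of wild type fish and fish heterozygous at either locus or at both, and wild type (WT) fish, used for hearts only, had the unaltered sequence. Hearts were taken by hand at 48 hours post fertilisation (hpf), with 2 libraries each from DM, sibling and WT fish, and whole embryos were taken at 25 hpf, with 3 DM and 3 sibling libraries. All libraries carry the strain label AB, heart RNA was amplified before library construction, and the labels give neither the number of fish behind a library nor whether the replicates are separate clutches. The p-values therefore rest on the spread between these libraries, which may be technical, and on a spread shared across genes.

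The extracellular matrix gives tissues their shape and tells cells where to move. Laminins are trimers of an alpha, a beta and a gamma chain that nidogens help tie into basement membranes, while fibronectin and tenascins fill the looser matrix through which embryonic cells migrate. Integrins, pairs of an alpha and a beta chain, hold cells to these ligands, and metalloproteinases and ADAMTS enzymes cut the matrix that TIMP proteins protect. In the developing heart, such proteins form the layer between muscle and endocardium in which valves arise.

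Libraries held 3289161 to 5963478 counted reads in hearts and 8341467 to 16700992 in embryos, so that a count of 0 allowed up to 0.503 to 0.912 CPM and 0.180 to 0.360 CPM. The 126 genes together took 0.356% to 0.612% of the reads in hearts and 0.501% to 0.662% in embryos. Cardiomyocyte markers, 8 genes, took 1.41% of the reads in sibling heart 1, 3.08% to 5.04% in all other hearts and 0.0411% to 0.0475% in embryos. Among hearts, each of the 8 was lowest in sibling heart 1. Transcripts of tet2 were counted at 87.5 to 152 CPM in DM embryos and 77.7 to 120.0 CPM in sibling embryos, so the tet2 counts do not show the genotype. Those of tet3 were lower in DM in each pair, narrowly in pair 1 (92.12 against 94.96 CPM) and most in pair 3 (38.05 against 74.63 CPM). The groups overlapped, as DM embryo 1 exceeded sibling embryos 2 and 3. The part of the tet3 mutation in these levels was not tested. The heart libraries were not alike in tissue content. Lens and retina markers took 0.111% of the reads in DM heart 1 and 0.336% in sibling heart 1, against 0.00224% to 0.0197% in the other 4 hearts. Of these markers, crx (133.5 CPM) and rx1 (10.7 CPM) were highest in WT heart 3. Neural markers took 0.212% in WT heart 3 and 0.0139% in WT heart 1, against 0.0331% to 0.118% in DM and sibling hearts. Skeletal muscle markers took 0.874% in DM heart 1, against 0.0888% to 0.174% elsewhere. Other lists set both WT hearts apart as sums. Skin markers took 0.0188% and 0.0501% in WT hearts, against 0.146% to 0.277% in DM and sibling hearts. Yolk and liver markers took 0.0114% and 0.0201%, against 0.0444% to 0.0722%. Erythroid markers, 6 of 7 listed, took 0.202% and 0.191%, against 0.0701% to 0.1235%. Singly, krt91, tp63, fabp10a, vtg1, hbbe3 and hbbe1.1 did not set both WT hearts apart.

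In DM embryos, 4 laminin chains, tenascin C and the fibronectin receptor pair itga5 and itgb1a stood lower than in siblings, and the protease genes mmp9 and mmp30 and the inhibitor genes timp2b and timp4.1 stood higher. These calls rest on a blocked fit, in which each DM embryo library is set against the sibling library that has its replicate number. Its p-values leave out the spread between pairs and draw much of the remaining spread from other genes. In that fit, by edgeR's quasi-likelihood test with Benjamini-Hochberg adjustment at 0.05, 6 of 114 genes rose and 10 fell in DM embryos, 14.0% in all. Across all genes tested the same fit called 13.8%, with 4.37% higher and 9.39% lower, so the share of these genes called was near that of genes in general. Without the block, edgeR called 0 of the 114 (0.0% of all genes), with 8 (7.02%) at an unadjusted p under 0.05 against 3.28% of all genes. Of those 8, 4 were higher and 4 lower, where all genes gave 1.12% and 2.16%. DESeq2 (0.191% of all genes) and limma-voom (0.0%) also called 0. The authors' deposited values for DM over sibling embryos called 47 genes, 0 of them among those described here. Each of the 16 had an adjusted p of 0.722 in the edgeR test without the block. Genes chosen by the blocked fit tend to run one way in all 3 pairs, so that this adds no support. Of the 114 genes, 42 were lower in DM in all 3 pairs and 15 were higher in all 3. In whole embryos, fewer cells of a type and less RNA per cell cannot be told apart.

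**Figure D1:**
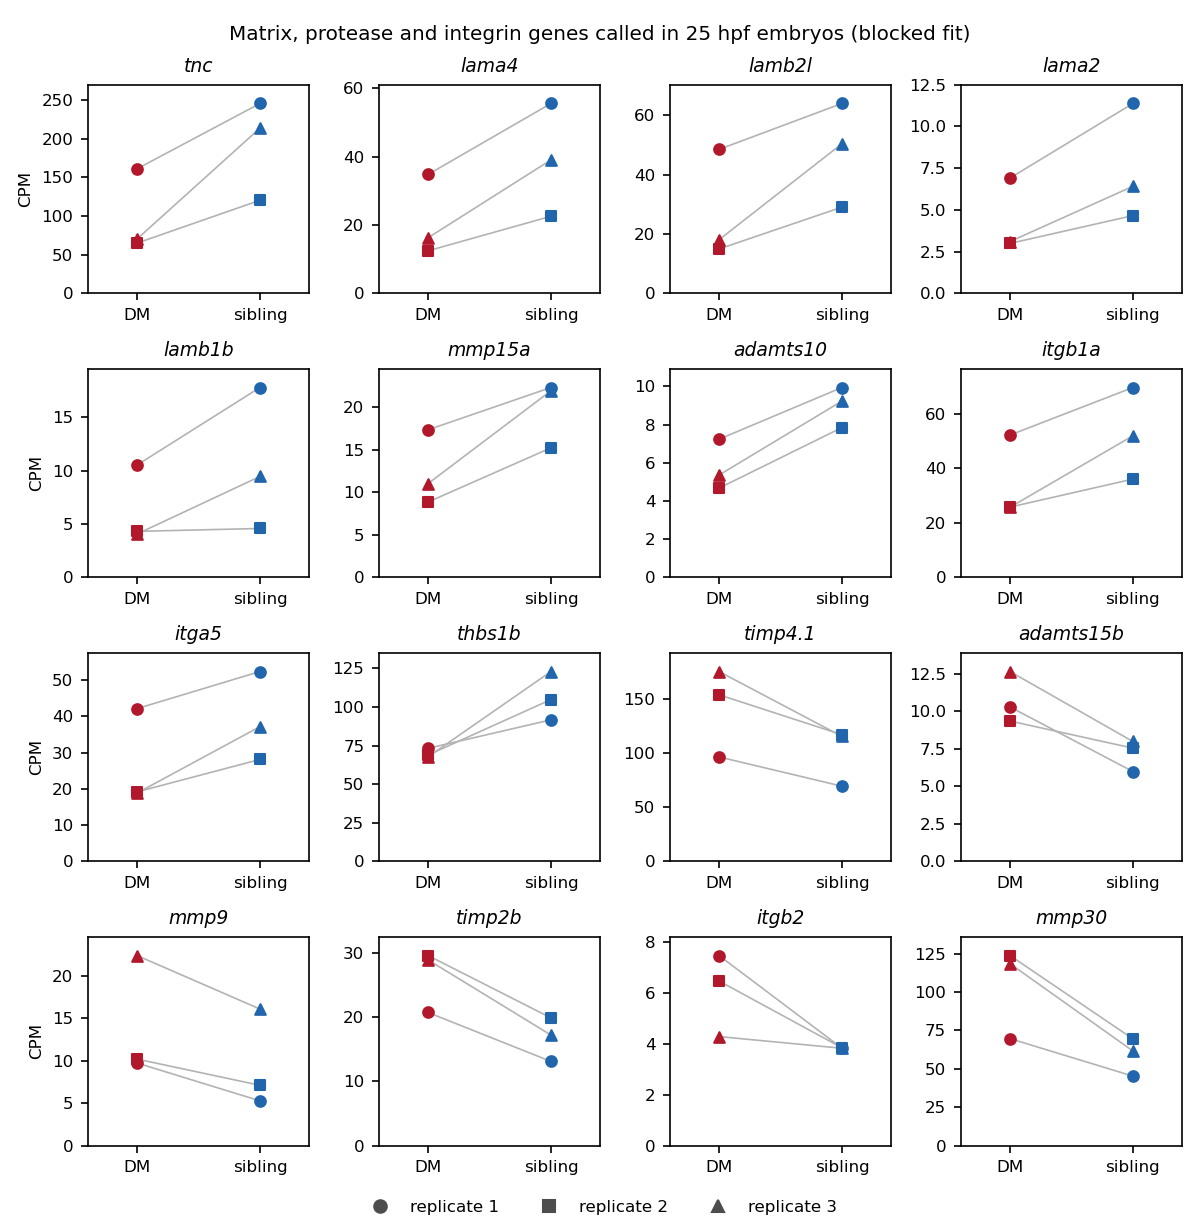
CPM (vertical axis, starting at 0 in each panel) of the 16 genes called in the blocked fit, in DM embryos (left, red) and sibling embryos (right, blue), with grey lines joining libraries of the same replicate number. In each panel all 3 lines run in the same direction, which the choice of genes by this paired fit favours. The levels of differently numbered libraries overlap for most genes.

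Among the laminins and nidogens, all 14 measured in embryos had a negative log2 fold change in DM in the blocked fit, with a median of -0.43 and a range of -0.85 to -0.23, and 4 of the 14 fell past the threshold. All 14 were also negative without the block (median -0.43), while 48.2% of all genes were below 0 in the blocked fit. The alpha chain gene lama4 (ENSDARG00000020785, chromosome 20, 230251 to 271330, GRCz10), known from vessel basement membranes, was counted at 34.8, 12.5 and 16.3 CPM in DM embryos 1 to 3 and at 55.6, 22.6 and 39.1 CPM in sibling embryos 1 to 3. Each DM library was below the sibling library of its number, but DM embryo 1 exceeded sibling embryo 2, so the groups overlapped. Its log2 fold change was -0.85 (SE 0.16, adjusted p = 0.00122, edgeR with the block). The beta chain gene lamb2l (ENSDARG00000033950, chromosome 23, 20335227 to 20399428) showed 48.6, 14.99 and 18.1 CPM in DM embryos, against 64.0, 29.1 and 50.4 CPM in sibling embryos. Here too the groups overlapped only through the high DM embryo 1, and the log2 fold change was -0.85 (SE 0.17, adjusted p = 0.00244, edgeR with the block).

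The muscle laminin gene lama2 was low throughout, at 6.91, 3.00 and 3.11 CPM in DM embryos and 11.4, 4.66 and 6.42 CPM in sibling embryos, and fell by 0.73 on the log2 scale (SE 0.20, adjusted p = 0.0198, edgeR with the block). The beta chain gene lamb1b, at 10.5, 4.32 and 4.07 CPM in DM embryos and 17.8, 4.59 and 9.46 CPM in sibling embryos, fell by 0.66 (SE 0.20, adjusted p = 0.0281, edgeR with the block), and its libraries numbered 2 were nearly level. The chains counted most highly in embryos did not pass. The gamma chain gene lamc1, shared by most laminins, had 317, 177 and 162 CPM in DM embryos and 417, 195 and 309 CPM in sibling embryos (log2 fold change -0.42, SE 0.16, adjusted p = 0.0828, edgeR with the block). The alpha chain gene lama5 had a log2 fold change of -0.40 (adjusted p = 0.114) and the beta chain gene lamb1a of -0.23 (adjusted p = 0.314) in the same edgeR fit. After removal of the trend with gene span described further on, all 14 remained negative with a median of -0.20, and lama4 and lamb2l, but not lama2 (adjusted p = 0.0725) and lamb1b (adjusted p = 0.0738), stayed below the threshold in edgeR with the block. Notochord and cartilage markers, 5 of 6 listed, took 0.0571%, 0.0123% and 0.0112% of the reads in DM embryos and 0.0888%, 0.0199% and 0.0339% in sibling embryos. As a sum they too were lower in DM in each pair, mostly through the collagen gene col2a1a, with matn1 at 0 in DM embryo 2. Singly, acana, col9a1a and matn1 were not lower in every pair. In pair 1 col9a1a had 11.3 CPM in DM and 10.5 CPM in sibling. Endothelium and endocardium markers, 8 of 8 listed and none at 0, took 0.0189%, 0.0131% and 0.0132% of the reads in DM embryos and 0.0230%, 0.0189% and 0.0199% in sibling embryos. As a sum they were lower in DM in each pair. The gene klf2a was higher in DM in each pair, at 8.68, 6.35 and 6.32 CPM in DM embryos and 7.96, 4.29 and 5.52 CPM in sibling embryos. In pair 1 pecam1 was higher in DM as well. Lens and retina markers, 8 of 8 listed, were as a sum also lower in each pair, with mipb at 0 in DM embryos 1 and 3. They took 0.00311%, 0.00179% and 0.00179% in DM embryos and 0.00920%, 0.00695% and 0.0188% in sibling embryos. In pair 1 crx was higher in DM (1.21 against 0.659 CPM). Epicardium markers, 4 of 4 listed and none at 0, were as a sum lower in each pair as well, mostly through aldh1a2. They took 0.00616%, 0.00329% and 0.00304% in DM embryos and 0.00740%, 0.00384% and 0.00446% in sibling embryos. Singly, wt1a was higher in DM in pair 1 (6.75 against 4.67 CPM) and pair 3 (3.22 against 2.81 CPM), and tcf21 in pair 1. Whole-embryo counts do not show that the epicardium markers came from epicardium. The part of these marker lists in the laminin levels was not tested.

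Among the 16 other matrix glycoproteins measured in embryos, 2 fell and 0 rose. Tenascin C, a glycoprotein that loosens adhesion to fibronectin, had the largest log2 change of the 114 genes in the blocked fit. Its gene tnc (ENSDARG00000021948, chromosome 5, 27960853 to 28025364) was counted at 161, 65.1 and 70.4 CPM in DM embryos and at 246, 120.5 and 214 CPM in sibling embryos. Every DM library was below its sibling of the same number, and the groups overlapped through DM embryo 1 and sibling embryo 2. The log2 fold change was -0.96 (SE 0.17, adjusted p = 0.000887, edgeR with the block). The thrombospondin gene thbs1b (ENSDARG00000010785, chromosome 20, 29134730 to 29148944), which encodes a secreted inhibitor of angiogenesis in mammals, had 73.2, 68.9 and 67.7 CPM in DM embryos and 91.7, 104.8 and 123 CPM in sibling embryos. The groups did not overlap, and the log2 fold change was -0.52 (SE 0.15, adjusted p = 0.0259, edgeR with the block). Fibronectin itself was not called. The gene fn1a had 188, 95.2 and 112 CPM in DM embryos and 194, 77.2 and 137 CPM in sibling embryos (log2 fold change 0.06, SE 0.16, adjusted p = 0.812, edgeR with the block), and fn1b had a log2 fold change of -0.10 (adjusted p = 0.755). The periostin gene postnb and the collagen-binding gene sparc, at 791, 1026 and 1164 and at 482, 753 and 849 CPM in DM embryos and at 654, 892 and 982 and at 424, 729 and 632 CPM in sibling embryos, had log2 fold changes of 0.31 (adjusted p = 0.172) and 0.29 (adjusted p = 0.212).

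The metalloproteinases and TIMPs included most of the genes that rose. Of 20 measured in embryos, 4 rose and 1 fell, and the median log2 fold change was 0.12. The protease gene mmp30 (ENSDARG00000045887, chromosome 10, 38700055 to 38719558) had 69.6, 124 and 118 CPM in DM embryos, against 45.2, 69.5 and 61.6 CPM in sibling embryos. The lowest DM library lay just above the highest sibling library, so the groups did not overlap. Its log2 fold change was 0.87 (SE 0.16, adjusted p = 0.00111, edgeR with the block). The gelatinase gene mmp9 (ENSDARG00000042816, chromosome 8, 24260273 to 24274708) had 9.73, 10.2 and 22.4 CPM in DM embryos and 5.27, 7.10 and 16.1 CPM in sibling embryos. Pair 3 was high in both groups, which overlapped, and the log2 fold change was 0.70 (SE 0.17, adjusted p = 0.00853, edgeR with the block). The membrane-anchored protease gene mmp15a ran the other way, with 17.4, 8.87 and 11.0 CPM in DM embryos and 22.3, 15.2 and 21.95 CPM in sibling embryos (log2 fold change -0.62, SE 0.16, adjusted p = 0.0140, edgeR with the block).

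The inhibitor gene timp2b (ENSDARG00000075261, chromosome 3, 57562441 to 57595994) had 20.7, 29.6 and 28.9 CPM in DM embryos and 13.1, 19.9 and 17.2 CPM in sibling embryos, with no overlap. Its log2 fold change was 0.73 (SE 0.15, adjusted p = 0.00390, edgeR with the block). A second inhibitor gene, timp4.1 (ENSDARG00000090394, chromosome 11, 666012 to 676529), rose by 0.56 (SE 0.16, adjusted p = 0.0191), with 96.7, 154 and 176 CPM in DM embryos and 69.6, 117 and 116 CPM in sibling embryos. Both proteases and inhibitors of proteases were thus among the genes that rose. The gelatinase gene mmp2, whose product TIMP2 helps to activate in mammals, had 100.7, 96.1 and 98.6 CPM in DM embryos and 97.4, 86.3 and 104 CPM in sibling embryos and was not called (log2 fold change 0.11, adjusted p = 0.622, edgeR with the block). The membrane protease genes mmp14a and mmp14b, with log2 fold changes of -0.05 (adjusted p = 0.828) and -0.17 (adjusted p = 0.437), and the collagenase gene mmp13a, with 0.22 (adjusted p = 0.680), were not called either. Skin markers, 7 of 7 listed and none at 0, took 2.96%, 3.79% and 3.45% of the reads in DM embryos and 2.71%, 2.99% and 2.95% in sibling embryos. As a sum they were higher in DM in each pair, mostly through krt4. The gene tp63 was lower in DM in each pair, at 61.6, 48.4 and 47.8 CPM in DM embryos and 85.3, 48.5 and 69.45 CPM in sibling embryos. So was krt91 in each pair, and krt5 in pair 3. Yolk and liver markers, 5 of 5 listed, took 0.805%, 0.979% and 0.938% of the reads in DM embryos and 0.6995%, 0.830% and 0.822% in sibling embryos. As a sum they were also higher in each pair, with fabp10a at 0 in DM embryo 2 and in all 3 sibling embryos. In pair 3 apoa1b (2534 CPM in DM, 3563 CPM in sibling) and vtg1 were lower in DM. The part of both lists in the levels of the genes that rose was not tested.

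ADAMTS proteases split 1 up and 1 down among 19 measured in embryos, with 16 below 0 and a median log2 fold change of -0.30. The gene adamts15b (ENSDARG00000033544, chromosome 15, 17667466 to 17682778), from the group of ADAMTS enzymes that cut large proteoglycans, had 10.3, 9.35 and 12.6 CPM in DM embryos and 5.99, 7.55 and 7.99 CPM in sibling embryos. The groups did not overlap, and it rose by 0.66 (SE 0.18, adjusted p = 0.0167, edgeR with the block). A second gene of that symbol, ENSDARG00000058252, was below 1 CPM in both tissues. The gene adamts10 (ENSDARG00000075188, chromosome 8, 20266284 to 20357961), which in humans is linked to fibrillin microfibrils, had 7.23, 4.68 and 5.36 CPM in DM embryos and 9.94, 7.84 and 9.23 CPM in sibling embryos, again without overlap. It fell by 0.58 (SE 0.19, adjusted p = 0.0397, edgeR with the block; adjusted p = 0.186 with the span trend removed). None of the 14 fibulins, fibrillins and lysyl oxidases was called in embryos in the blocked edgeR fit, where 5 were at an unadjusted p under 0.05 (33.1% of all genes were). No elastin gene reached the minimum in embryos. Both proteoglycans measured, dcn and lum, were not called in the same fit (-0.24, adjusted p = 0.269, and -0.01, adjusted p = 0.974). Across the 114 genes, DM and sibling embryos did not overlap for 6 higher and 4 lower genes, 5.26% and 3.51%, where 2.98% of all genes did so in each direction.

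**Figure D2:**
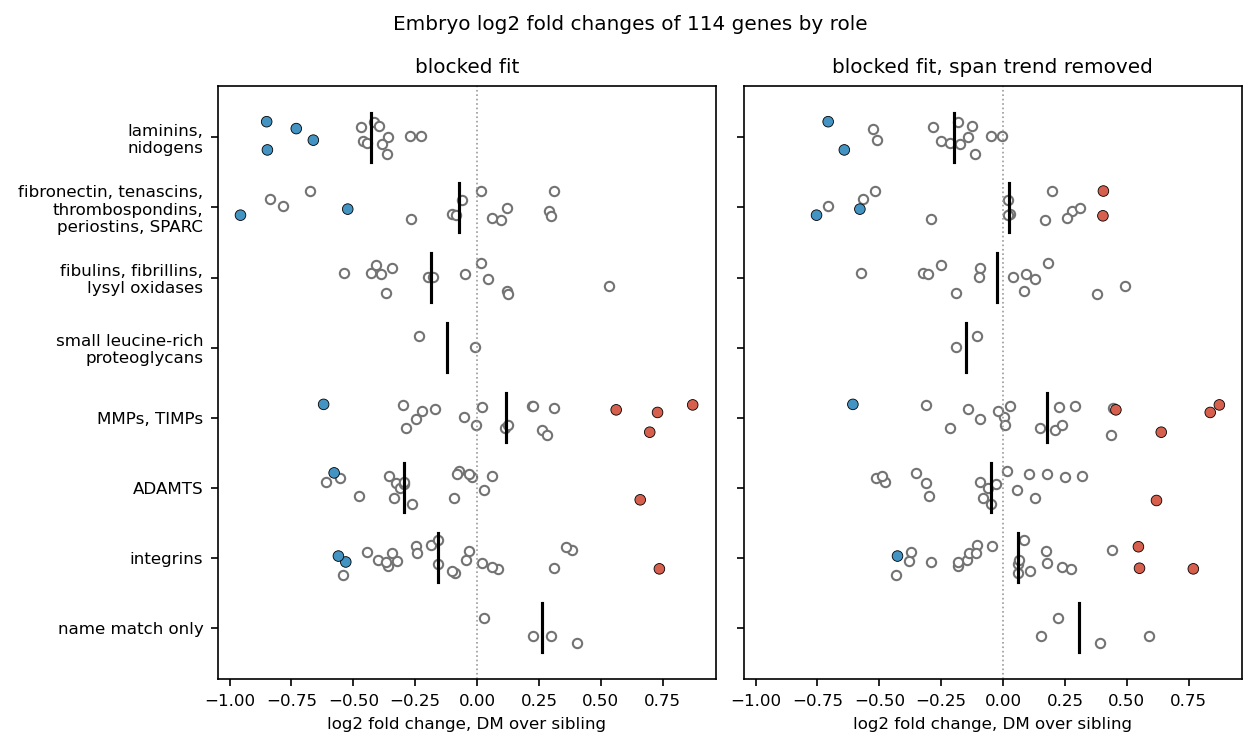
Log2 fold change, DM over sibling embryos (horizontal axis), of the 114 genes measured in embryos, by role (vertical axis), in the blocked fit (left) and with the trend with genomic span removed as well (right); filled points passed the threshold (red higher, blue lower), open points did not, and bars are medians. The 14 laminins and nidogens lie below 0 on both sides, and the 4 metalloproteinase and TIMP genes that rose are on the right of both panels.

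Integrins link the cell to the ligands above, and of 25 measured in embryos 1 rose and 2 fell. The 2 that fell encode the chains that pair as the main fibronectin receptor. The alpha chain gene itga5 (ENSDARG00000006353, chromosome 23, 33521094 to 33631630) had 42.1, 19.2 and 18.9 CPM in DM embryos and 52.3, 28.1 and 37.1 CPM in sibling embryos. The beta chain gene itgb1a (ENSDARG00000071863, chromosome 24, 1116468 to 1155290) had 52.2, 25.8 and 25.7 CPM in DM embryos and 69.6, 36.0 and 51.9 CPM in sibling embryos. In both genes DM embryo 1 stood above sibling embryo 2, and every DM library was below the sibling library of its number. The log2 fold changes were -0.53 for itga5 (SE 0.15, adjusted p = 0.0242) and -0.56 for itgb1a (SE 0.15, adjusted p = 0.0185) in edgeR with the block, and with the span trend removed itga5 was no longer called (-0.29, adjusted p = 0.147) while itgb1a was (-0.43, adjusted p = 0.0378). Another beta 1 gene, itgb1b.1 (ENSDARG00000053232, chromosome 2, 43719683 to 43753656), had 83.0, 105 and 100.2 CPM in DM embryos and 95.3, 97.4 and 120.3 CPM in sibling embryos (log2 fold change -0.05, adjusted p = 0.854). The leukocyte beta chain gene itgb2 (ENSDARG00000016939, chromosome 9, 45160186 to 45182714) had 7.48, 6.47 and 4.29 CPM in DM embryos and 3.83, 3.85 and 3.83 CPM in sibling embryos. The groups did not overlap, and it rose by 0.74 (SE 0.21, adjusted p = 0.0246, edgeR with the block). Myeloid markers, 6 of the 7 listed and none at 0 in any embryo library, took 0.00293%, 0.00393% and 0.00484% of the reads in DM embryos and 0.00348%, 0.00511% and 0.00483% in sibling embryos. They did not separate the groups, and their part in the levels of itgb2 and mmp9 was not tested.

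The fold changes in embryos went with genomic span (first to last base of the gene, introns included). The members are long genes, with a median span of 44.1 kb against 17.2 kb over all genes at 1 CPM or more. The 57 with the longer spans had a median log2 fold change of -0.27 with 6 lower and 0 higher in the blocked fit, and the 57 with the shorter spans had a median of -0.05 with 4 lower and 6 higher. The median of all 114 was -0.17 in the blocked fit (0.02 over all genes) and -0.01 once each library had been corrected for a smooth relation to span (0.03 over all genes). That second fit called 6 lower and 10 higher, where all genes gave 8.04% and 4.99%, or 13.0% in all. Of the 16 calls of each fit, 12 (75% of each) were shared. Among the genes newly called were postnb, the integrin alpha chain genes itga1 and itga2.2 and the thrombospondin gene thbs4b, all higher in DM, of which all but postnb were named after their values were seen. The count also moved with the libraries used. The blocked fit called 4 genes without pair 1 (3.07% of all genes), 8 without pair 2 (6.83%) and 28 without pair 3 (17.1%). Only tnc, mmp30, lama4 and lamb2l were called in all 3 of these fits, with adjusted p values in edgeR of 0.0159, 0.0386, 0.0246 and 0.00588 without pair 1. These fits share pairs with one another and are not independent checks. Without pair 3 tnc had an adjusted p of 9.87e-14 in edgeR with the block, against 0.000887 with all pairs, although fewer libraries were used. Without sibling embryo 1 the edgeR test without the block had a median of 0.00 over the 114 genes, against -0.19 with all libraries.

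**Figure D3:**
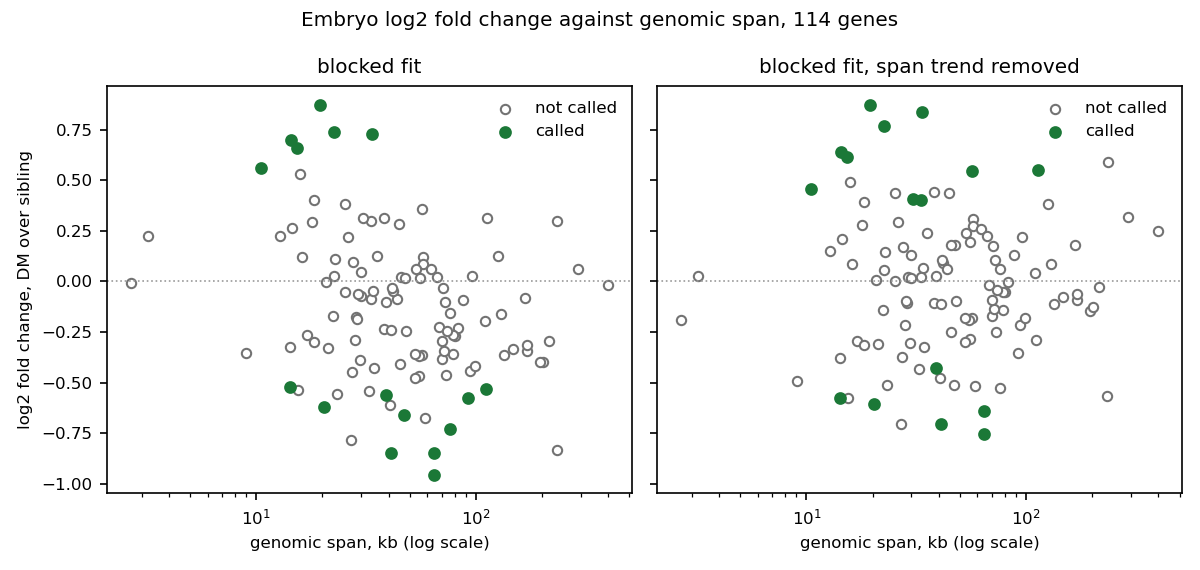
Log2 fold change, DM over sibling embryos (vertical axis), against the genomic span of the gene in kb (horizontal axis, log scale) for the 114 genes, in the blocked fit (left) and with the trend with span removed (right); filled points passed the threshold. On the left the genes above the median span of 44.1 kb have a median of -0.27 with 6 called, all lower, and on the right their median is -0.05.

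Partner genes, 54 in a list of proteins that bind integrins from inside the cell or share the matrix, were looked up beside the members. The blocked fit tested 44 of them in embryos and called 9 lower (20.5%, where all genes gave 9.39% lower) and 0 higher. They included ptk2aa and ptk2ab, which encode focal adhesion kinases (-0.65, adjusted p = 0.00899, and -0.51, adjusted p = 0.0299), fermt2, which encodes the integrin activator kindlin 2 (-0.62, adjusted p = 0.0125), and ilk, the integrin-linked kinase gene (-0.45, adjusted p = 0.0438; edgeR with the block for all). The basement membrane proteoglycan genes agrn and hspg2 fell by 0.60 (adjusted p = 0.0179) and 0.54 (adjusted p = 0.0251). The focal adhesion kinase gene ptk2aa had 24.4, 11.8 and 13.5 CPM in DM embryos and 33.9, 18.9 and 27.4 CPM in sibling embryos. Each pair ran the same way, which its choice by the blocked fit favours. Without the block edgeR called 0 of the 44, with 2 at an unadjusted p under 0.05, and DESeq2 called 0. In hearts edgeR called 0 of 46, with a median log2 fold change of 0.12 for DM over sibling and -0.31 for DM over WT. The embryo median was -0.12 in the blocked fit. DESeq2 called 1 lower for DM over sibling in hearts (2.17%, against 0.382% of all genes in either direction). For hearts minus embryos DESeq2 called 3 lower (6.52%, against 0.386% of all genes) and edgeR called 0. The partners were not looked up with the span trend removed or with a pair left out, where the calls of the members changed.

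In hearts at 48 hpf, the versican-cutting protease gene adamts1 was lower in DM than in WT, the beta 1 integrin gene itgb1b.1 was lower in DM than in sibling hearts, and the SPARC relative sparcl1 was higher in sibling than in WT hearts. None of these passed the edgeR test. Of the 110 of the 117 heart genes that passed the filter on low counts, edgeR called 0 for DM over sibling, 0 for DM over WT and 0 for sibling over WT (0.0% of all genes in each). At an unadjusted p under 0.05, DM over sibling had 12 genes (10.9%, against 3.34% of all genes), 3 of them higher (1.25% of all genes) and 9 lower (2.09%). DM over WT had 11 (10.0%, against 7.38% of all genes), 2 of them higher (4.24%) and 9 lower (3.14%). Sibling over WT had 8 (7.27%, against 4.9% of all genes), 5 of them higher (2.95%) and 3 lower (1.95%). DESeq2 called 0 of these genes for DM over sibling (0.382% of all genes), 1 lower for DM over WT (0.418%) and 1 higher for sibling over WT (0.224%), and limma-voom called 0 in all 3 comparisons (0.0%). The DM over WT and DM over sibling comparisons share the DM libraries, and both comparisons with WT share the WT libraries. In dissected hearts too, the share of a cell type and its RNA per cell cannot be told apart.

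The gene adamts1 (ENSDARG00000103519, chromosome 1, 677013 to 686023) was counted at 26.1 and 30.6 CPM in DM hearts 1 and 3, at 31.3 and 27.7 CPM in sibling hearts and at 61.7 and 70.1 CPM in WT hearts. DM and sibling hearts overlapped, and both were below both WT hearts. The marker sums given above also set both WT hearts apart, with erythroid markers higher and skin, yolk and liver markers lower. The part of these cell types in the level of adamts1 was not tested. For DM over WT the log2 fold change was -1.54 in DESeq2 (SE 0.42, adjusted p = 0.0339) and -1.51 in edgeR (SE 0.36, adjusted p = 0.655), and the authors' deposited table lists -1.37 with an adjusted p of 0.0139. For sibling over WT it was -1.45 in DESeq2 (adjusted p = 0.0937) and -1.44 in edgeR (adjusted p = 0.913), so the value was near that of DM over WT. DESeq2 no longer called adamts1 with any single heart left out (adjusted p 0.0841 to 1.00).

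The gene sparcl1 (ENSDARG00000074989, chromosome 1, 36693480 to 36720533) encodes an anti-adhesive relative of SPARC and was named after its values were seen. It had 21.1 and 33.4 CPM in DM hearts, 181.5 and 37.3 CPM in sibling hearts and 2.52 and 9.12 CPM in WT hearts. Sibling heart 1 stood far above the other 5, and both WT hearts were lower than all others. Skin markers and yolk and liver markers, as sums, were also lowest in both WT hearts, while erythroid markers were highest there. The part of these cell types in the level of sparcl1 was not tested. For sibling over WT the log2 fold change was 3.94 in DESeq2 (SE 0.83, adjusted p = 0.00475) and 3.95 in edgeR (SE 0.91, adjusted p = 0.913), and the authors' deposited table lists 2.00 with an adjusted p of 0.0397. Without sibling heart 1 it was 2.46 in DESeq2 (adjusted p = 0.333), and without WT heart 1 it was 3.31 (adjusted p = 0.0963).

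The integrin gene itgb1b.1 had 7.54 and 10.4 CPM in DM hearts, 42.9 and 27.7 CPM in sibling hearts and 10.1 and 14.0 CPM in WT hearts. Both sibling hearts were above the other 4, and DM and WT hearts overlapped. For DM over sibling the log2 fold change was -1.98 in edgeR (SE 0.46, adjusted p = 1.00) and -2.003 in DESeq2 (SE 0.55, adjusted p = 0.0529), and the authors' deposited table lists -1.53 with an adjusted p of 0.0312. The higher level was thus that of sibling hearts, and WT hearts were near DM hearts. Markers of foregut mesenchyme (barx1, foxf1, foxf2a and nkx3.3, a list chosen after the data were seen) took 0.000699% and 0.000400% of the reads in DM hearts, 0.0277% and 0.0148% in sibling hearts and 0.0148% and 0.00138% in WT hearts. Both sibling hearts were above the others in the sum of these markers, WT heart 1 only just below. For barx1 and foxf2a singly, WT heart 1 (75.3 and 42.9 CPM) exceeded sibling heart 3 (59.6 and 35.3 CPM). The part of these markers in the level of itgb1b.1 was not tested.

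**Figure D4:**
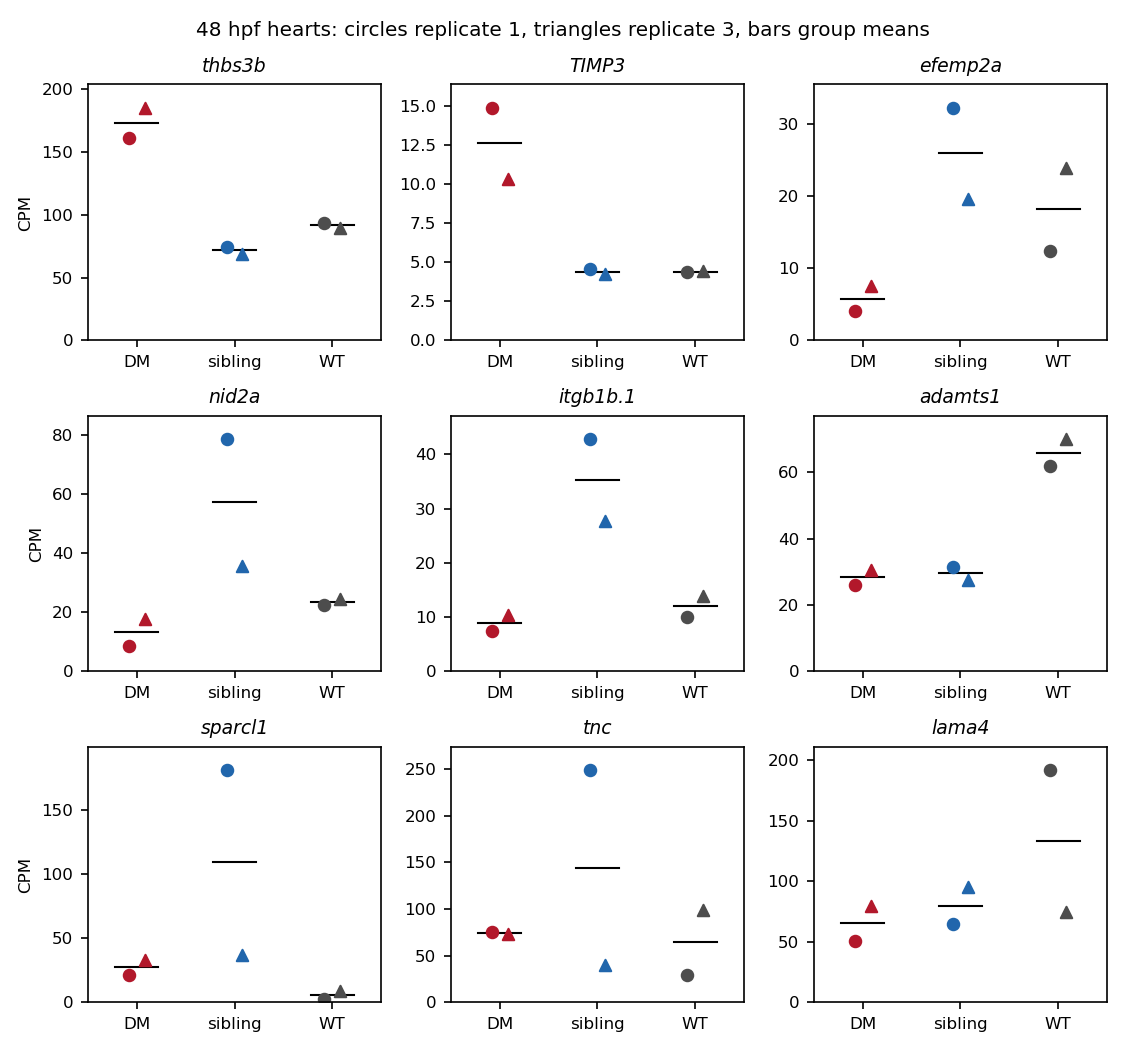
CPM (vertical axis, starting at 0 in each panel) of 9 genes in DM, sibling and WT hearts at 48 hpf; circles are replicate 1, triangles replicate 3 and bars the means of 2 libraries. Both DM hearts lie above the other 4 for thbs3b and TIMP3 and below them for efemp2a and nid2a, and sibling heart 1 is far above the rest for sparcl1 and tnc.

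Some genes set both DM hearts apart from all 4 control hearts, and those named in this paragraph and the next were chosen after their values were seen except thbs3b, efemp2a, loxl2a, itgb2, mmp14a and mmp14b. DM hearts were higher than every sibling and WT heart for 5 of 117 genes, 4.27%, where 9.33% of all genes were so. The thrombospondin gene thbs3b (ENSDARG00000012060, chromosome 19, 24831911 to 24859397) had 162 and 185 CPM in DM hearts, 74.5 and 69.0 CPM in sibling hearts and 93.9 and 89.5 CPM in WT hearts. Replicates lay close together, and the log2 fold change for DM over sibling was 1.26 in edgeR (SE 0.33, adjusted p = 1.00) and 1.24 in DESeq2 (adjusted p = 0.122). TIMP3, the TIMP that stays bound to the matrix, had 14.9 and 10.4 CPM in DM hearts, 4.56 and 4.24 CPM in sibling hearts and 4.36 and 4.46 CPM in WT hearts (log2 fold change for DM over sibling 1.49 in edgeR, SE 0.52, adjusted p = 1.00). The fibulin genes FBLN1 and fbln7 and the leukocyte integrin gene itgb2 completed the 5. For itgb2 the DM hearts, at 4.96 and 4.95 CPM, exceeded the highest control heart, at 4.91 CPM, by less than the spread among control hearts.

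DM hearts were lower than every sibling and WT heart for 12 of 117 genes, 10.3%, where 4.22% of all genes were so. They were the matrix genes efemp2a, fbln5, loxl2a, loxl3b, nid1a, nid2a and THBS1 (1 of many) and the protease genes adamts15a, adamts5, adamtsl7, mmp14a and mmp14b, of which adamtsl7 encodes an ADAMTS-like protein without a protease domain. The gene adamts5 did not pass the filter on low counts in hearts and was not tested there. DESeq2 gave adamtsl7 no adjusted p for DM over sibling or DM over WT. Epicardium markers, 4 of 4 listed and none at 0, had the same order as a sum. They took 0.000938% and 0.00205% of the reads in DM hearts, 0.00626% and 0.00400% in sibling hearts and 0.00646% and 0.00285% in WT hearts. Singly, aldh1a2 and tcf21 had this order, and wt1a and tbx18 did not. For wt1a DM heart 3 (1.88 CPM) exceeded sibling heart 3 (1.79 CPM) and WT heart 3 (1.75 CPM). For tbx18 both DM hearts (2.02 and 1.41 CPM) exceeded sibling heart 3 (1.34 CPM). The sum of the foregut mesenchyme markers given above for itgb1b.1 was likewise below all 4 control hearts in both DM hearts, with nkx3.3 at 0 in DM heart 3. For barx1 alone DM heart 1 (2.39 CPM) exceeded WT heart 3 (0.388 CPM). DM heart 3 (0.471 CPM) and WT heart 3 lay under their limits for a count of 0 (0.706 and 0.582 CPM), too low to be ordered. The part of both marker lists in the levels of these 12 genes was not tested. The elastic fibre assembly gene efemp2a (ENSDARG00000094324, chromosome 14, 30329348 to 30363761) had 4.05 and 7.54 CPM in DM hearts, 32.2 and 19.6 CPM in sibling hearts and 12.4 and 23.9 CPM in WT hearts. The log2 fold changes in edgeR were -2.16 for DM over sibling (SE 0.57, adjusted p = 1.00) and -1.92 for DM over WT (SE 0.56, adjusted p = 0.655). The nidogen gene nid2a (ENSDARG00000075707, chromosome 17, 14788993 to 14868872) had 8.46 and 17.9 CPM in DM hearts, 78.7 and 35.7 CPM in sibling hearts and 22.5 and 24.6 CPM in WT hearts. DM heart 3 was only slightly below the WT hearts, and the difference was wider against sibling hearts (log2 fold change -2.11, SE 0.56, adjusted p = 1.00, edgeR). The membrane protease gene mmp14b had 55.2 and 65.7 CPM in DM hearts, 161 and 86.8 CPM in sibling hearts and 116 and 71.0 CPM in WT hearts, and the lysyl oxidase gene loxl2a 31.8 and 43.8 CPM, 68.4 and 71.4 CPM, and 98.9 and 59.4 CPM in DM, sibling and WT hearts.

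Single heart libraries weighed heavily on these genes. Sibling heart 1 had the highest level of the 6 hearts for 51 of 117 genes (43.6%, against 23.8% of all genes) and WT heart 1 for 33 (28.2%, against 11.2%), while DM heart 1 had the highest for 11 (9.40%, against 29.3%). Sibling heart 1 was also the library with the lowest share of cardiomyocyte markers, and the part of this tissue content in the levels was not tested. The median log2 fold change of the members in edgeR was -0.24 for DM over sibling (0.04 over all genes), -0.30 for DM over WT (0.02) and -0.04 for sibling over WT (0.00). Without the DM and sibling hearts numbered 1, which held the lens transcripts, the median for DM over sibling was 0.14. Tenascin C shows this in a single gene, with tnc at 75.2 and 73.2 CPM in DM hearts, 249 and 39.7 CPM in sibling hearts and 29.3 and 99.2 CPM in WT hearts. The sibling and WT hearts spanned the DM hearts, and the log2 fold change for DM over sibling was -0.95 in edgeR with all libraries and 0.83 without sibling heart 1. The laminins and nidogens, negative in embryos, were divided in hearts, with 7 of 14 below 0 for DM over sibling (median -0.05) and 11 of 14 for DM over WT (median -0.38). Of the genes called in embryos, lama4 had 50.6 and 80.1 CPM in DM hearts, 64.5 and 95.5 CPM in sibling hearts and 192 and 74.5 CPM in WT hearts, with WT heart 1 far above the rest.

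Whether the DM effect differed between hearts and embryos was tested as the difference of the 2 log2 fold changes (DM over sibling in hearts minus DM over sibling in embryos) over 105 genes measured in both. EdgeR called 0 of them (0.0457% of all genes), with 13 at an unadjusted p under 0.05 (12.4%, where all genes gave 5.9%), limma-voom called 0 (0.0356%), and edgeR with the block called 0 (0.244%). DESeq2 called 1, itgb1b.1, at -2.03 (SE 0.48, adjusted p = 0.00821; 0.386% of all genes were called lower), and edgeR gave -1.97 (SE 0.44, adjusted p = 0.312). That gene was called by DESeq2 in 4 of 10 fits that left out a library, and in the other 6 its adjusted p was 0.0739 to 0.228. A further beta 1 gene, itgb1b.2, named after its values were seen, had the opposite sign and was not called (0.75, SE 0.76, adjusted p = 0.921, edgeR).

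The same gene was often read at different levels in the 2 tissues, whatever the genotype. Of 126 genes, 22 were higher in all 6 hearts than in all 6 embryo libraries (17.5%, against 20.1% of all genes), and 31 were lower (24.6%, against 23.8%). Stage, tissue and RNA amplification cannot be told apart here, and no test was made. The fibronectin receptor chain gene itga5 was counted at 127 to 183 CPM in hearts and 18.9 to 52.3 CPM in embryos. The nidogen gene nid1b stood at 280.0 to 817 CPM in hearts and 39.8 to 94.4 CPM in embryos, and the protease gene adamts9, which cuts versican, at 57.2 to 138 CPM in hearts and 6.86 to 11.8 CPM in embryos. Of 20 ADAMTS genes 6 were higher and 1 lower in hearts. Among the genes lower in hearts were postnb, at 35.04 to 215 CPM in hearts and 654 to 1164 CPM in embryos, mmp30, at 0 to 3.34 CPM in hearts and 45.2 to 124 CPM in embryos, and itgb1b.1, at 7.54 to 42.9 CPM in hearts and 83.0 to 120.3 CPM in embryos. Of 27 integrin genes 4 were higher and 9 lower in hearts. Of the 16 genes called in embryos, itga5 and lamb1b were thus read more in hearts, and thbs1b, adamts15b, mmp30, timp2b and timp4.1 less.

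**Figure D5:**
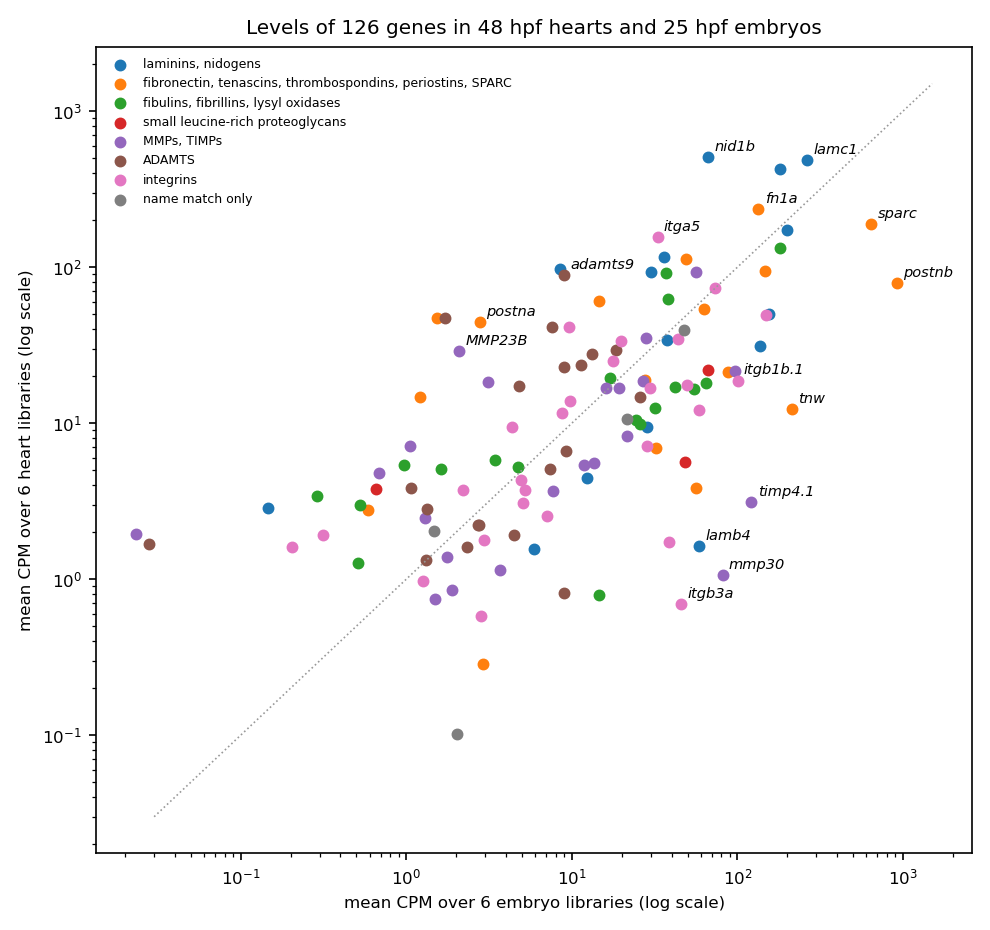
Mean CPM over 6 heart libraries (vertical axis, log scale) against the mean over 6 embryo libraries (horizontal axis, log scale) for the 126 genes, coloured by role; the dotted line marks equal values, and levels of different genes are not to be compared as no transcript lengths were used. The genes nid1b and itga5 lie above the line, and postnb, tnw, timp4.1 and mmp30 lie below it.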

How the data were processed

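The data are 6 RNA-seq libraries from hearts and 6 from whole embryos. The deposited tables hold raw counts of reads per gene as the authors made them. The authors also deposited, per the file headers, a log2 fold change with a p-value and adjusted p-value per gene for each of 4 comparisons, and the tool behind them is not given in the sources used here. Their log2 fold changes against WT run WT over the other group and were turned round here. Per the submitters' processing notes, the tools were STAR 2.3.0e and HTSeq 0.6.0 and the build GRCz10, with no role given. How reads shared by duplicated gene copies were counted is not stated.

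Counts were scaled by TMM, filtered with filterByExpr and tested over all genes with edgeR 4.0.16 (quasi-likelihood, R 4.3.3, FDR 0.05), hearts and embryos apart. Each edgeR SE was taken as the size of the log2 change over the square root of F. DESeq2 1.42.0, limma-voom (limma 3.58.1), other size factors, no filter and libraries left out were alternatives. So were a lowess trend with genomic span (0.3) and the replicate numbers as a block. The edgeR fits were also run on simulated counts drawn without a pair effect, which cannot bear on the pairing of the embryos. The numbers were taken to pair embryos, since equally numbered libraries deviated alike from their group means (r = 0.847, 0.672 and 0.270, each above 0.1), although the labels state no pairing and sibling embryo 2 with DM embryo 3 gave 0.512. In hearts, with 2 numbers, r was -0.250 to 0.300 and they were not taken as pairs. Limits for a count of 0 (3 counts) cover counting error only. Members, lists and tests were chosen with earlier results of these data known. Genes named were those called, the 3 with the highest mean CPM per role and tissue, and a list by role; others are said to be named after their values were seen. 1 gene below the minimum is not reported here.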

Additional observations from a re-analysis of the deposited data

Results flagged for a closer look

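The DM effect on the integrin gene itgb1b.1 differed between hearts and embryos in DESeq2, by -2.03 on the log2 scale (DM over sibling in hearts minus DM over sibling in embryos, SE 0.48, adjusted p = 0.00821). Mean levels were 8.95 ± 1.99 CPM in DM hearts and 35.3 ± 10.7 CPM in sibling hearts (SD, n = 2 each), and 96.1 ± 11.6 CPM in DM embryos and 104 ± 13.9 CPM in sibling embryos (SD, n = 3 each). WT hearts, which the comparison does not use, had 12.02 ± 2.77 CPM (SD, n = 2). The edgeR test of the same difference gave an adjusted p of 0.312.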

How the results depend on the processing

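In embryos the count of genes called was 0 by edgeR, DESeq2 and limma-voom with all libraries, and 0 by edgeR with other size factors, without the filter and without any single library. It was 16 with the replicate block, 16 with block and span trend removed, and 4, 8 and 28 with the block and without pair 1, 2 or 3. In hearts the replicate block gave 0 called in each of the 3 comparisons, and 0 for the difference between tissues. Leaving out any library, edgeR called 0 throughout. DESeq2 called 1 gene for DM over WT, 1 for sibling over WT and 1 for the difference between tissues. With libraries left out, a step added after the data were seen, DESeq2 called 0 to 1 genes for DM over sibling (1 without sibling heart 3, sparcl1), 0 to 1 for DM over WT (1 without WT heart 1, postna, higher), 0 to 1 for sibling over WT (0 without sibling heart 1; postna in place of sparcl1 without WT heart 1) and 0 to 4 for the difference between tissues. The 4, without sibling heart 3, were itgb1b.1, adamtsl7, nid2a and postnb, and the 2 without DM heart 3 were itgb1b.1 and nid2a. All 47 named values were uncalled in the starting edgeR fit without the block, so no call could be lost. Of 884 recomputed log2 fold changes of these values, 808 stayed uncalled with their direction. Another 73 passed the threshold newly, among them the calls of the blocked embryo fit, and 3 changed sign. Those were tnc in hearts, DM over sibling, from -0.95 with all libraries to 0.83 without sibling heart 1, 0.88 without the DM and sibling hearts numbered 1, and 0.82 in DESeq2 without sibling heart 1, where 1 sibling library remained (-1.73 to 0.83 over the edgeR fits that left out a library); the cause was not tested. A fit that left 1 heart library in a group assumed it to vary like the others. The share of all genes called was not taken for the DESeq2 fits with libraries left out. Their counts can therefore not be set against genes in general. A count of 0 still allowed up to 0.503 to 0.912 CPM in hearts, or 0.180 to 0.360 CPM in embryos, at this depth.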
